A study of Mus musculus with 18 samples.

Results

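Immediate early genes, 10 in number, were followed in single mouse hearts. They were taken by name from the deposited tables: *Fos*, *Fosb*, *Fosl2*, *Jun*, *Junb*, *Egr1*, *Atf3*, *Ier2*, *Nr4a1* and *Dusp1*. These are 10 of the 23457 genes in the count table. All 10 were also in the FPKM table, and all 10 passed the filter on low counts among 12281 genes tested. The hearts came from 18 male C57BL/6 mice, 6 for each of 3 vectors. The vectors were rAAV6-blank, rAAV6-FLAG-PLCβ1a and rAAV6-FLAG-PLCβ1b, given by tail vein when mice were 8 weeks old, and the hearts were taken at 17 weeks. The blank vector, the control, carries a promoter with no protein product, so all 3 groups received virus. PLCβ1b and PLCβ1a are splice variants of phospholipase Cβ1, and the second was used as the form without activity in heart. The mice underwent echocardiography under isoflurane before they were killed, and frozen ventricle was the source of RNA (both ventricles per the labels, left ventricle per the study's methods). RNA of each tissue piece mixes all its cells, so more RNA per cell and more cells of a type cannot be told apart.

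Immediate early genes are transcribed within minutes of a stimulus, from factors already present in the cell, and their mRNAs are short-lived. Many encode transcription factors, and others encode proteins that end the signal. In heart they are known for their rapid response to stretch, adrenergic stimulation and ischaemia. The promoters of this class are known for binding serum response factor at CArG boxes and CREB at cAMP response elements, both of which are acted on by kinase cascades.

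Promoter sequences (250 bases before to 50 after the start site, RefSeq, build GRCm38.p6) were found for 8 of the 10 genes. *Egr1* and *Ier2* had no entry in that table. The 4 below are shown because *Fos* is the reference for the comparisons across hearts, and *Jun*, *Nr4a1* and *Dusp1* were the members with the lowest FDR in the fit on it. Capitals mark TGACG, the core of a cAMP response element, on either strand (CGTCA where it lies on the other strand). The *Jun* window holds none and has no capitals. The positions are chr12:85473640-85473939 on the plus strand for *Fos*, chr15:101266596-101266895 on the plus strand for *Nr4a1*, chr17:26508423-26508722 on the minus strand for *Dusp1* and chr4:95052173-95052472 on the minus strand for *Jun*.
Fos: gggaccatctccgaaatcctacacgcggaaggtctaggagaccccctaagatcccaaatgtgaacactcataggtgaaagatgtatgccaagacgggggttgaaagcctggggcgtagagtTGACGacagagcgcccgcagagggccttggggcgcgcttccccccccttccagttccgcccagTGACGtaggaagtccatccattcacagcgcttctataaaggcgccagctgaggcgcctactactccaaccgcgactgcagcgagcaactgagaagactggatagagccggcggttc
Nr4a1: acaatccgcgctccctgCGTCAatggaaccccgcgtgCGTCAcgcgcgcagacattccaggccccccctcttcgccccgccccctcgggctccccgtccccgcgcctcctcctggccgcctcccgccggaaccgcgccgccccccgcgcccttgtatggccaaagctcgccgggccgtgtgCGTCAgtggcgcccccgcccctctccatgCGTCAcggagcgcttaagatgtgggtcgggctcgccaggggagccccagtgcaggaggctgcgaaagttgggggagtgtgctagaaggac
Dusp1: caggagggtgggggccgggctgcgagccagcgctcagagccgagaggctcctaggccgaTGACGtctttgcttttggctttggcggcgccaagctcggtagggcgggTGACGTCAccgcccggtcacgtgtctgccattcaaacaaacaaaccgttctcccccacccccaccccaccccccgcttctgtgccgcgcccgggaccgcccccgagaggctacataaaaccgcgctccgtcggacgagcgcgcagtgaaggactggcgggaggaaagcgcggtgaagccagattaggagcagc
Jun: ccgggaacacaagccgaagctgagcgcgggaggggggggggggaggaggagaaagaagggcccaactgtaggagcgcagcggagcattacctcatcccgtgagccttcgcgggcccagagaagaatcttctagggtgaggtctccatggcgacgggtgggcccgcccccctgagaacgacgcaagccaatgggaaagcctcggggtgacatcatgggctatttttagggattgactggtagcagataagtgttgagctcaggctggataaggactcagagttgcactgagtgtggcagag

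TGACG was present in 6 of the 8 promoters (*Fos*, *Fosb*, *Junb*, *Atf3*, *Nr4a1* and *Dusp1*), against 20.8% of all 32851 promoters of that length. *Nr4a1* held it at 4 positions. The full palindrome TGACGTCA, which contains TGACG, was in *Dusp1* alone of the 8 and in 1.79% of all promoters. The GC box GGGCGG was in 7 of 8, against 35.7%, and GCGNGGGCG, the EGR site, which can overlap it, was in 3 of 8 (*Fosb*, *Fosl2* and *Nr4a1*), against 5.55%. TATAAA was in *Fos* and *Junb*, against 13.6% of all promoters. It lay at −33 to −28 from the start site in *Fos*, but at 0 to 5, on the start site itself, in *Junb*. The AP-1 site TGANTCA was in 0 of 8, against 7.81%, and a CArG box in 0 of 8, against 1.63%. Both strands were searched. These matches describe letters in a window of this length.

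The 10 genes are compact. In the annotation used for counting (mm10), their longest transcripts held 1 to 7 exons (median 4), against a median of 9 for the tested genes with 1 location. The median gene span was 3560 bases, against 23062. *Jun*, *Junb* and *Ier2* have a single exon. None of the 10 overlaps another gene of that annotation on either strand.

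Libraries held 13246339 to 24155465 counts, of which 3908354 to 7591558 were on nuclear genes. mt-Rnr1 and mt-Rnr2 took 59.98 to 64.5% of the counts. *Plcb1*, the gene of both vectors, was at 5.43 to 6.89 CPM (counts scaled by TMM to a common library size) in blank hearts, 17.8 to 29.2 CPM in PLCβ1a hearts and 23.2 to 70.0 CPM in PLCβ1b hearts. Neither PLC group overlapped with blank. Libraries were numbered by group in the sample titles. What the numbers record is not stated, and any order they follow cannot be told apart from the vector. Cardiomyocyte markers (*Myh6*, *Tnnt2*, *Tnni3*, *Actc1*, *Myl2* and *Ryr2*) summed to between 17181 and 19197 CPM in every heart.

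Compared per length, the 10 genes were of low to moderate abundance. In blank hearts the median FPKM was 13.3 for *Dusp1*, 10.3 for *Jun*, 7.93 for *Nr4a1*, 4.38 for *Junb*, 4.30 for *Fosl2*, 3.005 for *Atf3*, 2.41 for *Fos*, 2.27 for *Egr1*, 2.21 for *Ier2* and 0.107 for *Fosb*. No member was at 0 FPKM in any heart. In this order some neighbours could not be separated within single hearts: *Junb* exceeded *Fosl2* in 2 of 6 blank hearts, and *Egr1* exceeded *Ier2* in 2 of 6. *Dusp1* exceeded *Jun* in all 18 hearts, and *Ier2* exceeded *Fosb* in all 18. *Fosb* rested on 3 to 67 counts per heart, with a median of 8, so its values carry the most counting error. The others had medians between 54.5 and 516 counts.

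The values of each member follow, grouped by function and given as CPM, with the lowest, median and highest heart of each group of 6. Fold changes are on the log2 scale with their SE, from edgeR's quasi-likelihood test across all 12281 genes with Benjamini-Hochberg adjustment. Calls were made where FDR fell below 0.1.

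*Fos*, a subunit of the AP-1 transcription factor and the best known gene of the class, was at 1.27, 4.19 and 5.44 CPM in blank hearts. It was at 4.45, 5.24 and 19.9 CPM in PLCβ1a hearts, and at 3.38, 5.83 and 14.6 CPM in PLCβ1b hearts. A single heart made each upper end: PLCβ1a heart 7 and PLCβ1b heart 6. The other 5 PLCβ1a hearts lay between 4.45 and 5.68 CPM, and 3 hearts of each PLC group exceeded every blank heart. For PLCβ1a heart 21 the margin was small, at 5.4395 CPM against 5.4387 in blank heart 36. By FPKM, PLCβ1a hearts 14 and 21 (3.12 and 3.33) lay below blank heart 36 (3.41), and heart 7 alone of that group exceeded every blank heart. The log2 difference from blank was 1.03 ± 0.50 (SE) for PLCβ1a (edgeR FDR = 0.601) and 0.84 ± 0.51 for PLCβ1b (edgeR FDR = 0.777).

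*Fosb*, a further Fos-family subunit, was at 0.148, 0.337 and 0.607 CPM in blank hearts, 0.308, 0.700 and 2.70 CPM in PLCβ1a hearts and 0.150, 0.813 and 1.28 CPM in PLCβ1b hearts. Again PLCβ1a heart 7 was the highest of all, and the groups overlapped. *Fosl2* encodes Fra-2, a Fos subunit with more stable expression than *Fos*. It was at 16.4, 21.6 and 31.7 CPM in blank hearts, 21.5, 35.03 and 61.1 CPM in PLCβ1a hearts and 23.4, 27.97 and 41.1 CPM in PLCβ1b hearts. For this gene 4 of 6 PLCβ1a hearts and 2 of 6 PLCβ1b hearts lay above every blank heart.

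*Jun*, the main partner of Fos proteins, varied least. Its values were 18.9, 26.7 and 32.5 CPM in blank hearts, 26.9, 31.3 and 37.4 CPM in PLCβ1a hearts and 22.4, 26.6 and 38.6 CPM in PLCβ1b hearts. The highest heart was PLCβ1b heart 6, and the groups overlapped over most of their range. *Junb*, a Jun subunit that can restrain AP-1, was at 4.73, 6.33 and 9.39 CPM in blank hearts, 6.26, 8.07 and 36.1 CPM in PLCβ1a hearts and 6.35, 8.14 and 22.4 CPM in PLCβ1b hearts. The group medians differed by less than the range of the blank hearts, and PLCβ1a heart 7 and PLCβ1b heart 16 gave the high ends.

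*Egr1*, a zinc finger transcription factor, had the widest range of the 10. It was at 2.597, 5.71 and 8.14 CPM in blank hearts, 4.29, 10.5 and 64.1 CPM in PLCβ1a hearts and 2.36, 7.10 and 35.7 CPM in PLCβ1b hearts. The highest values were PLCβ1a heart 7 and PLCβ1b heart 16, while PLCβ1b heart 6, second for *Fos*, was at 7.90 CPM and within the blank range. *Egr2*, its close relative, was at 10.4 and 8.54 CPM in those same 2 hearts and at no more than 1.44 CPM in the other 16 (chosen after its values were seen).

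*Atf3*, a stress-induced bZIP factor that can repress its targets, followed another order. It was at 3.25, 4.73 and 6.38 CPM in blank hearts, 4.67, 5.94 and 8.38 CPM in PLCβ1a hearts and 2.30, 5.80 and 16.5 CPM in PLCβ1b hearts. PLCβ1b heart 6 held the highest value, and PLCβ1b heart 8 the lowest of all 18. *Ier2*, a nuclear protein of the class, was at 1.79, 2.62 and 3.27 CPM in blank hearts, 2.20, 3.16 and 7.94 CPM in PLCβ1a hearts and 2.05, 2.91 and 5.09 CPM in PLCβ1b hearts. Its 2 highest hearts were those of *Egr1*.

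*Nr4a1*, an orphan nuclear receptor, was at 5.89, 17.3 and 26.2 CPM in blank hearts, 11.9, 21.9 and 53.8 CPM in PLCβ1a hearts and 12.6, 20.4 and 33.3 CPM in PLCβ1b hearts. Blank heart 30 was the lowest and PLCβ1a heart 7 the highest. *Dusp1*, a phosphatase that switches off MAP kinases, was at 15.2, 21.7 and 22.6 CPM in blank hearts, 19.0, 22.4 and 35.8 CPM in PLCβ1a hearts and 18.05, 23.3 and 30.01 CPM in PLCβ1b hearts. The blank hearts other than heart 30 lay within 20.4 to 22.6 CPM.

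**Figure D1:**
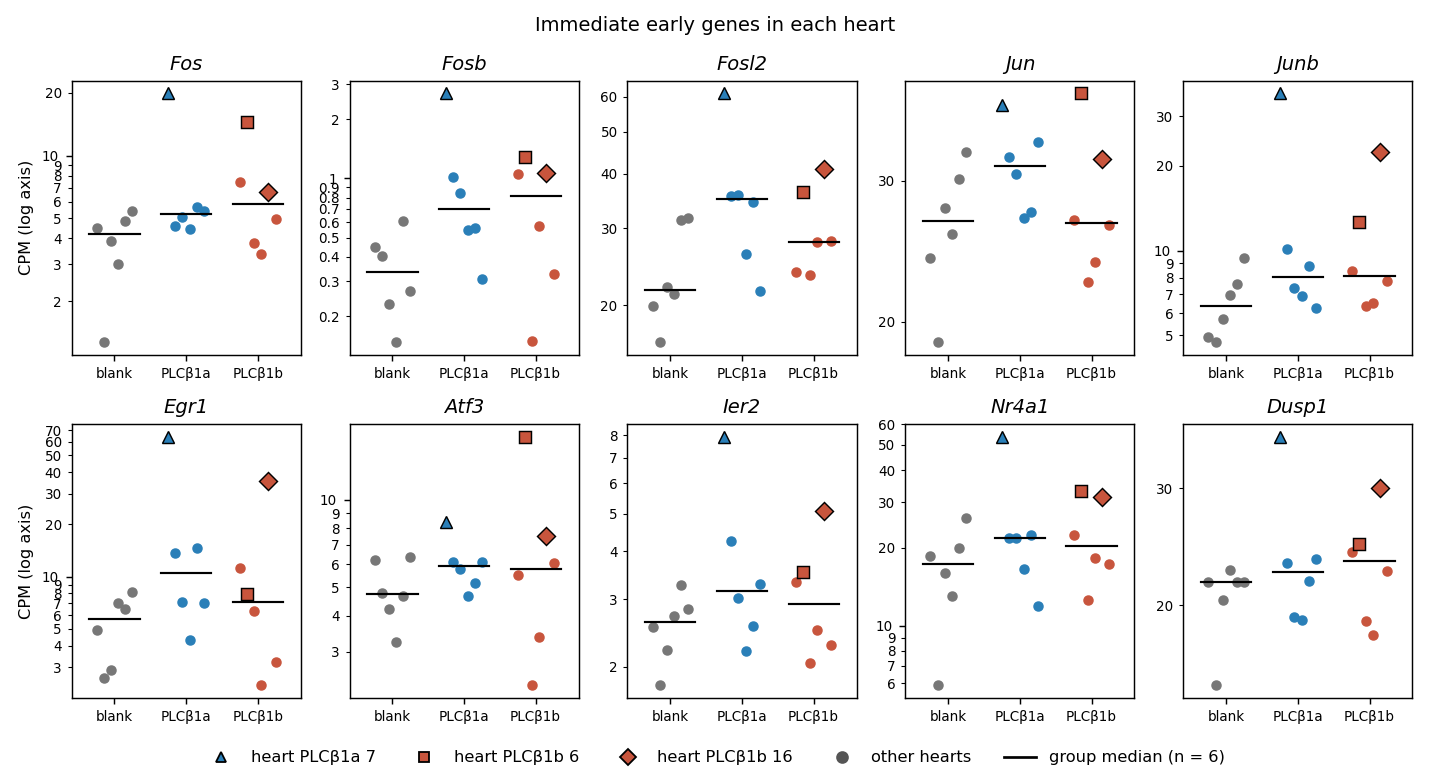
CPM of each gene in each heart on log axes, by vector, with the group median of 6 hearts as a bar. The triangle is PLCβ1a heart 7, highest for 8 of the 10 genes, and the square is PLCβ1b heart 6, highest for *Jun* and *Atf3*. The diamond is PLCβ1b heart 16.

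Against blank, PLCβ1b hearts gave a call for 0 of the 10 members, and for 0.0977% of the 12281 tested genes. All 10 differences were positive, from 0.09 for *Jun* to 1.07 for *Fosb*, with a median of 0.46 on the log2 scale. The median over all tested genes was 0.00. None of the 10 reached an unadjusted p of 0.05 with a higher level in PLCβ1b hearts, against 3.94% of all genes, and DESeq2 called 0 as well. Without PLCβ1a heart 7 in the fit, 2 of the 10 reached it (*Fos* and *Fosb*), with an SE of 0.36 in place of 0.51 for *Fos*, and 0 were called. The median of these differences moved with single hearts, to 0.62 without PLCβ1b heart 8 and 0.61 without blank heart 36. It was 0.37 without blank heart 30 or 33, and fell most without PLCβ1b heart 6 or 16. Without heart 6 the median was 0.27 with 9 of 10 positive, and *Atf3* went from 0.50 to 0.0093. Without heart 16 the median was 0.26 with 10 of 10 positive, and *Egr1* went from 0.97 to 0.20. Between PLCβ1a and blank hearts, 0 of 10 were called, against 0.138% of all genes. All 10 differences were again positive, with a median of 0.61. Of the 10, 3 reached an unadjusted p below 0.05 in edgeR, against 4.42% of all genes that did so with a higher level. These were *Fosb* (1.60 ± 0.61, FDR = 0.474), *Fosl2* (0.58 ± 0.25, FDR = 0.517) and *Egr1* (1.79 ± 0.76, FDR = 0.518). *Fosb*, at 3 to 13 counts in blank hearts, failed the filter when only 1 PLC group and blank hearts were fitted. With all hearts it passed in part through PLC hearts with more counts. Its differences from blank in both PLC groups are therefore not independent of the filter. For PLCβ1a against blank, the number with an unadjusted p below 0.05 was 6 by DESeq2 and 7 by edgeR without robust weights. It was 2 by limma on FPKM, and 1 of 9 tested when only these 2 groups were fitted by edgeR. With single hearts left out, it ranged from 0 (PLCβ1a heart 7) to 6 (PLCβ1a heart 13). None of these fits called any. The same blank hearts entered both comparisons.

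The size of the PLCβ1a differences moved with PLCβ1a heart 7. Without it, all 10 were still positive, the median difference from blank was 0.24, and 0 of 10 genes had an unadjusted p below 0.05. Between PLCβ1b and PLCβ1a hearts, 0% of genes were called by edgeR, and 543 had an unadjusted p below 0.05, while DESeq2 called 1. For the members the median difference was −0.23, and only *Atf3* was higher in PLCβ1b hearts. Without PLCβ1a heart 7, the median was 0.21 and 8 of 10 were higher in PLCβ1b hearts, so the direction depended on that heart. No member was called in any of the 3 comparisons under any alternative tried.

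**Figure D2:**
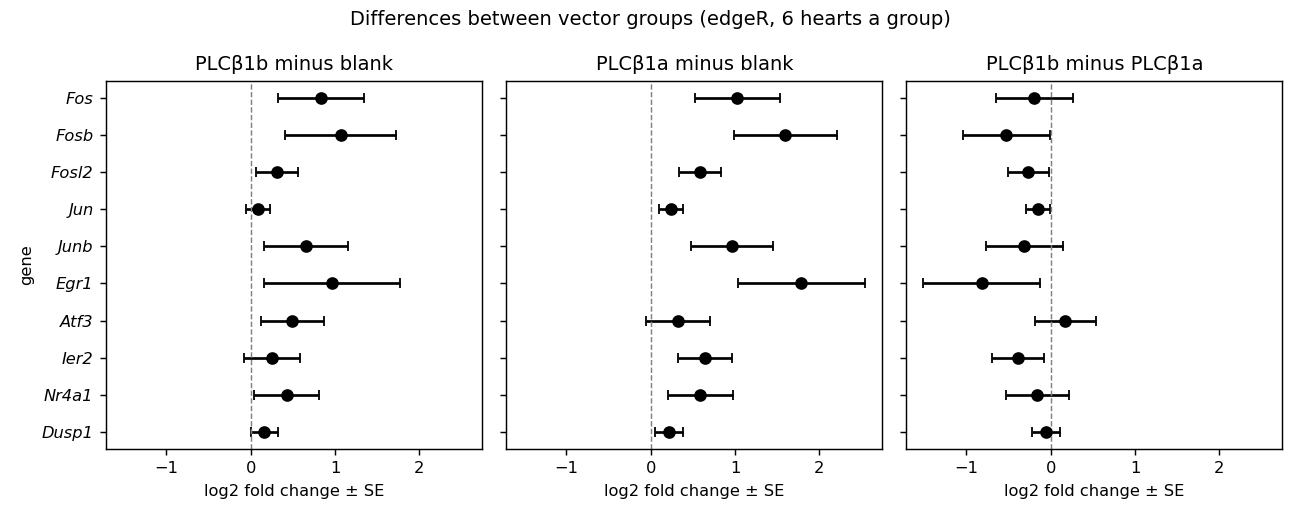
Log2 fold change of each gene with its SE, from edgeR with 6 hearts a group. All 10 points lie above 0 against blank in both PLC groups, and 9 of 10 lie below 0 for PLCβ1b against PLCβ1a.

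The 10 genes differed more between hearts of a group than most genes did. The SD of log2 CPM within groups was 1.18 for *Egr1*, 0.84 for *Fosb*, 0.77 for *Fos*, 0.70 for *Junb*, 0.67 for *Nr4a1*, 0.61 for *Atf3*, 0.49 for *Ier2*, 0.41 for *Fosl2*, 0.28 for *Dusp1* and 0.25 for *Jun*. The median of all tested genes was 0.16. *Egr1* stood at the 99.9th percentile of all tested genes, and *Dusp1* and *Jun*, lowest of the 10, at the 80.5th and 76.8th. Since the SD falls with abundance, edgeR's biological coefficient of variation was also set against its trend at the same level. The ratio was 1.997 for *Jun* and 2.13 for *Dusp1*, rising to 8.30 for *Egr1*, against a median of 0.84 over all genes. All 10 ratios stood above the 98.0th percentile. Across the 18 hearts, the highest CPM exceeded the lowest 2.04-fold for *Jun*, 15.6-fold for *Fos* and 27.2-fold for *Egr1*.

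**Figure D3:**
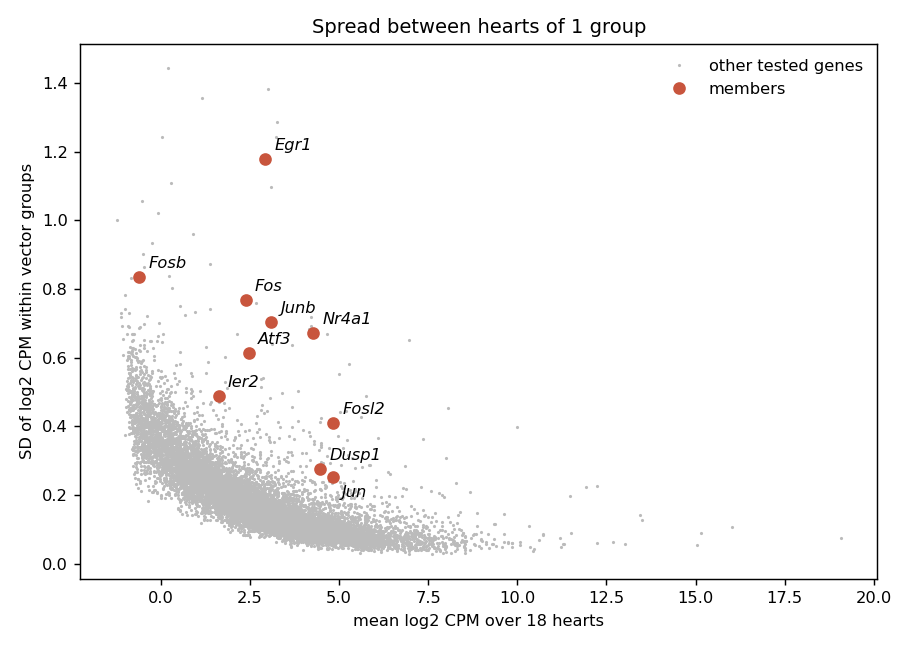
SD of log2 CPM within vector groups against mean log2 CPM for all tested genes (grey) and the 10 members (red). The members lie above most genes of like abundance, with *Egr1* at 1.18 and *Jun* at 0.25.

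Hearts did not take a uniform place across the 10 genes. PLCβ1a heart 7 was highest for 8 genes, within the top 3 for all 10 and above every blank heart for all 10, with a median log2 difference of 1.48 from the median heart. PLCβ1b hearts 6 and 16 were above every blank heart for 9 genes each, with medians of 0.62 and 0.63. How many of all tested genes lay above every blank heart in a given heart was not counted. Such counts, here and for single members above, therefore have no background. Blank heart 30 was lowest for 7 genes, with a median of −0.62. PLCβ1b heart 8 was below the median heart for all 10, although it is of the same vector as hearts 6 and 16. The 2 high PLCβ1b hearts differed from each other. Heart 6 was at 14.6 CPM for *Fos* and 16.5 for *Atf3*, where heart 16 was at 6.72 and 7.53, and heart 16 was at 35.7 CPM for *Egr1* and 22.4 for *Junb*, where heart 6 was at 7.90 and 12.7.

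**Figure D4:**
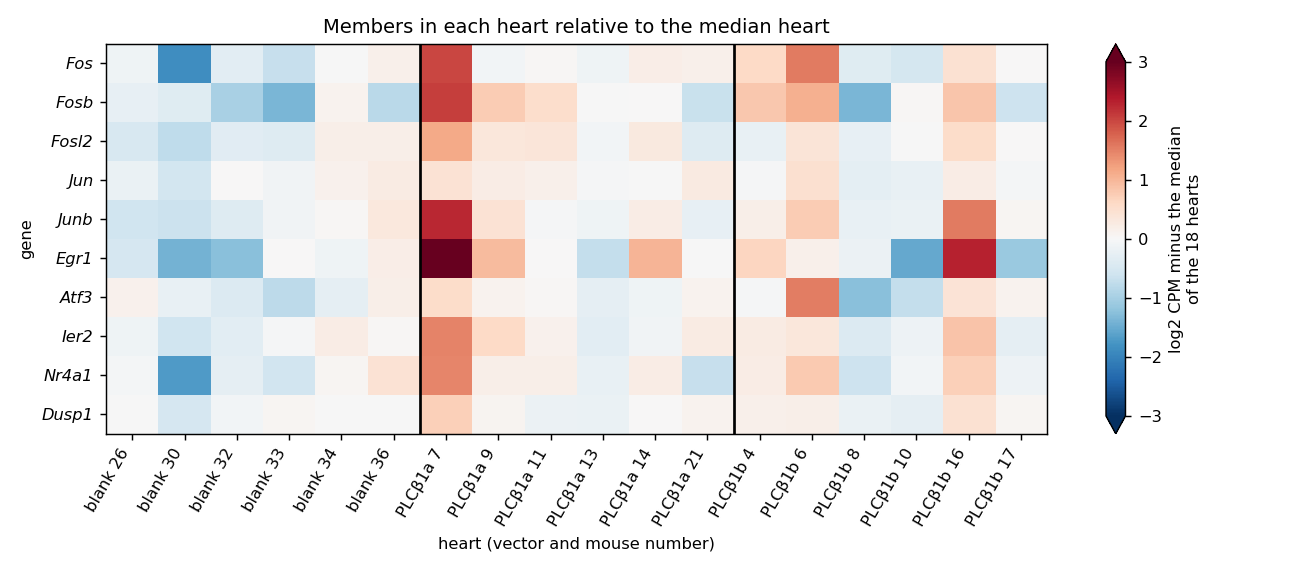
Log2 CPM of each gene minus its median over the 18 hearts, by heart, with black lines between vector groups. Red is above and blue below the median heart, and the scale ends at 3. The column of PLCβ1a heart 7 is red in all 10 genes, and blank heart 30 is blue in all 10.

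The members varied together across hearts. Over the 45 pairs of members, Pearson's r of log2 CPM in 18 hearts was between 0.42 (*Egr1* with *Atf3*) and 0.90 (*Ier2* with *Dusp1*), with a median of 0.75, and all 45 were positive. In 100000 permutations, two-sided, 44 pairs had a Benjamini-Hochberg adjusted p below 0.05 for Pearson's r and 45 for Spearman's rho, whose median was 0.71. The exception was *Egr1* with *Atf3* (r = 0.42, permutation adjusted p = 0.0826; rho = 0.59, permutation adjusted p = 0.0132). With the group means taken off, the median r was 0.71. The 45 pairs share hearts and libraries and are not separate pieces of evidence. The permutations moved hearts across vector groups, so the adjusted p-values include any shift between groups that members share. Pairs of other genes were not counted, so there is no background for these numbers. When the 2 hearts farthest from the median of the first gene of a pair were left out, r was 0.28 to 0.88, with a median of 0.62. Without PLCβ1a heart 7 the median was 0.66, and without that heart and PLCβ1b hearts 6 and 16 it was 0.58, and all 45 were above 0 in each case.

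Single pairs differed in how far they held. *Fos* with *Nr4a1* had r = 0.90 and rho = 0.80 (permutation adjusted p = 7.5e-05 and 0.00108), and r = 0.83 without the 3 hearts. *Fosl2* with *Junb* had r = 0.89 and rho = 0.89 (permutation adjusted p = 7.5e-05 and 0.0003), and r = 0.83 without the 3 hearts. *Fos* with *Atf3* had r = 0.69 and rho = 0.76 (permutation adjusted p = 0.00591 and 0.00119), and r = 0.39 without the 3 hearts.

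To ask which genes of the whole table varied with *Fos*, the counts of each gene were fitted on log2 CPM of *Fos*, with vector group as a further term. A slope of 1 means that the fitted log2 level of a gene rose by 1 for each rise of 1 in log2 CPM of *Fos* within a group. edgeR called 25 of 12280 genes at an FDR below 0.1 (0.204%), 20 with a positive slope and 5 with a negative one. Among the other 9 members 6 were called, all with a positive slope. The slopes were 0.89 ± 0.16 for *Fosb*, 0.80 ± 0.16 for *Junb*, 0.75 ± 0.10 for *Nr4a1*, 0.53 ± 0.09 for *Ier2*, 0.30 ± 0.05 for *Dusp1* and 0.27 ± 0.04 for *Jun*. *Junb* was nearest the threshold, with an edgeR FDR of 0.0936, and *Jun* had the lowest, 0.00242. *Egr1* (1.14 ± 0.29, edgeR FDR = 0.298), *Atf3* (0.58 ± 0.15, FDR = 0.289) and *Fosl2* (0.40 ± 0.09, FDR = 0.220) were not called.

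**Figure D5:**
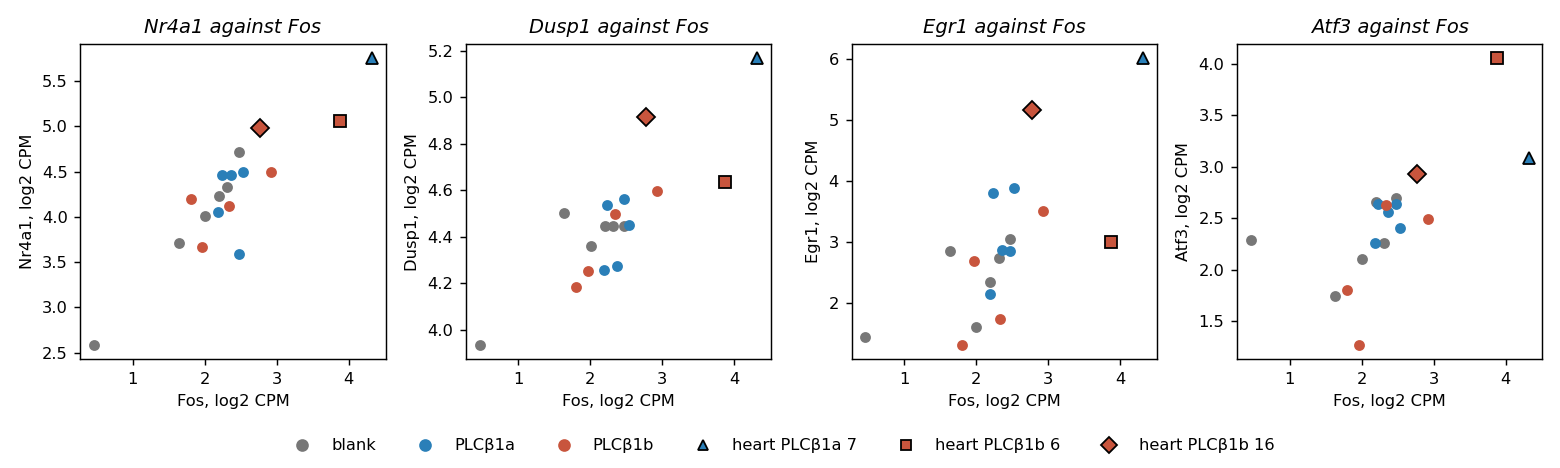
Log2 CPM of 4 genes against that of *Fos*, 1 point a heart, coloured by vector. *Nr4a1* and *Dusp1* lie near a line, while PLCβ1b heart 16 (diamond) lies high for *Egr1* and PLCβ1b heart 6 (square) lies high for *Atf3* at their level of *Fos*.

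The calls of this fit depended on PLCβ1a heart 7. Without it, 56 genes were called (20 with a positive and 36 with a negative slope), of which 8 were among the 25, and 2 members (*Jun* and *Nr4a1*) remained called. The slopes of all 9 members stayed positive, between 0.24 for *Dusp1* and 0.80 for *Atf3*. Without PLCβ1a heart 7 and PLCβ1b hearts 6 and 16, 70 genes were called (23 positive and 47 negative), among them 2 members, *Jun* and *Dusp1*. With edgeR's prior estimated without robust weights, 35 genes were called, among them all 9 members. With each of the 18 hearts left out in turn, *Jun* and *Nr4a1* were called in all 18 fits, *Fosb*, *Ier2* and *Dusp1* in 17 and *Junb* in 3. Without PLCβ1a heart 13, 15 genes were called.

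Outside the members, the 5 genes of lowest p with a positive slope were *Btg2*, *Gem*, *Nr4a3*, *Hnrnpa3* and *Sertad1*. *Btg2*, an antiproliferative gene induced by stress and growth factors, had the lowest p of all (slope 0.52 ± 0.05, edgeR FDR = 8.8e-05), and its slope was 0.50 without PLCβ1a heart 7 (FDR = 0.0101). *Nr4a3*, a relative of *Nr4a1*, had a slope of 0.76 ± 0.12, and *Gem*, a small GTP-binding protein that inhibits calcium channels, 0.46 ± 0.08. The 5 genes with a negative slope were *F630028O10Rik* (−0.53 ± 0.11), *Rasgrp3*, *AW112010*, *Clec2d* and *Eif4enif1*.

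Lists of related genes were counted in the same fit. Of 44 tested genes of 47 other immediate early genes, 4 were called, all with a positive slope (*Btg2*, *Nr4a3*, *Arc* and *Nr4a2*), against 0.204% of all genes. Without PLCβ1a heart 7, *Btg2* kept its call (edgeR FDR = 0.0101), and *Nr4a3* (FDR = 0.162), *Arc* (FDR = 0.539) and *Nr4a2* (FDR = 0.149) lost theirs. In the fit of all hearts the median slope of this list was 0.11, against 0.00 over all genes, and 35 of 44 were positive. An unadjusted edgeR p below 0.05 was reached by 19 of the 44, all with a positive slope, and by 924 of all 12280 genes, 470 of them with a positive slope. Calls were 0 among 12 tested AP-1 and related bZIP genes outside the members, 8 other MAP kinase phosphatases and 22 upstream kinases and factors. In that order, an unadjusted p below 0.05 was reached by 1 with a negative slope, and by 1 and 2 with positive slopes. Among the upstream kinases and factors *Crem*, a factor that binds cAMP response elements, had the lowest p (slope 0.25 ± 0.09, edgeR FDR = 0.505). Of 12 heat shock genes 0 were called by edgeR and 4 had an unadjusted p below 0.05, with a median slope of 0.08, and *Dnajb1* had the lowest p (0.57 ± 0.15, edgeR FDR = 0.310). Of 14 glucocorticoid response genes 0 were called by edgeR and 1 had an unadjusted p below 0.05.

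No list of related genes or cell type markers held a call between vector groups. Both tested erythroid markers were higher in PLCβ1a than in blank hearts at an unadjusted p below 0.05, in the direction of the members. On the log2 scale *Alas2* was higher by 0.63 ± 0.20 (edgeR FDR = 0.364) and *Slc4a1* by 0.91 ± 0.41 (FDR = 0.545). All 6 fibroblast markers were also higher in each PLC group, 2 of them at that p. Endothelial markers were higher for 4 of 6 in PLCβ1a hearts, 1 at that p, and for 5 of 6 in PLCβ1b hearts, 2 at that p. Heat shock genes were higher for 7 of 12 in PLCβ1a hearts and 0 of 12 in PLCβ1b hearts, with 1 and 2 lower at that p. Of 14 glucocorticoid response genes, 3 were lower at that p in each PLC group, and 1 was higher in PLCβ1a hearts. Of 6 cardiomyocyte markers, 1 was lower at that p in each PLC group, and of 7 macrophage markers 1 was lower in PLCβ1a hearts. For the other immediate early genes the median difference from blank was 0.13 in PLCβ1a hearts and 0.12 in PLCβ1b hearts, with 30 and 31 of 44 positive. An unadjusted edgeR p below 0.05 was reached by 6 higher and 2 lower in PLCβ1a hearts, and by 3 higher and 3 lower in PLCβ1b hearts. For upstream kinases and factors the median log2 difference from blank was 0.03 in PLCβ1a hearts and 0.02 in PLCβ1b hearts.

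Genes outside the members, 10 in number, had profiles most like the mean of the members, by Pearson's r of deviations from group means over 18 hearts, given as a description. They were *Btg2* (r = 0.93), *Gpr180* (0.88), *Irs2* (0.87), *Nr4a3* (0.85), *Sertad1* (0.84), *Sik1* (0.83), *Gem* (0.81), *Ptgs2* (0.81), *Dnajb1* (0.80) and *Ppp1cc* (0.80). Without PLCβ1a heart 7 and PLCβ1b hearts 6 and 16, r was 0.95 for *Btg2* and 0.47 for *Ptgs2*, the highest and lowest of the 10.

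Measures of the libraries were set beside *Fos*. Over 18 hearts, r with log2 CPM of *Fos* was 0.41 for total counts, 0.39 for nuclear counts and −0.04 for the share of mt-Rnr1 and mt-Rnr2. For the summed level of marker lists it was 0.26 for erythroid, −0.11 for atrial, 0.24 for granulocyte and 0.07 for heat shock genes. The Spearman's rho values were 0.31, 0.31, 0.04, 0.24, −0.21, 0.12 and 0.22 in that order. None of these 7 relations passed (100000 permutations, two-sided, lowest adjusted p = 0.369 for r and 0.558 for rho). Without the 2 hearts farthest from the median, r was 0.26 for total counts, 0.46 for nuclear counts and −0.12 for mt-Rnr1 and mt-Rnr2, then 0.26, −0.15, −0.33 and −0.33 for the 4 lists.

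PLCβ1a heart 7 was the deepest library, with 24155465 counts, and had the highest granulocyte and erythroid sums, 6.93 and 18.7 CPM. It was also highest of the 18 for the heat shock (970 CPM, next 942), fibroblast (409 CPM, next 406) and lymphocyte (0.966 CPM, next 0.765) sums. The granulocyte sum was 0.495 to 3.83 CPM in the other hearts, with 4 of 5 markers in the table and 1 tested. The erythroid sum was 5.66 to 16.7 CPM, with 6 of 6 in the table and 2 tested. Its *Plcb1* level, 17.8 CPM, was the lowest of its group. PLCβ1b hearts 6 and 16 had granulocyte sums of 0.974 and 1.51 CPM and erythroid sums of 7.33 and 11.99 CPM, within the range of the other hearts. The part of depth and of these markers in the levels of the members was not tested.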

How the data were processed

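RNA of 18 hearts, depleted of ribosomal RNA, was sequenced as strand-specific paired reads. The authors aligned reads to mm10 with TopHat (TopHat2 2.0.10 and Cufflinks 2.1 per the submitters' processing notes) and counted them on genes with HTSeq. Raw counts were deposited for each gene. A second deposited table holds FPKM, normalized by the authors for length and depth. The paper does not state which program made this second table.

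TMM-scaled counts of all hearts were fitted with edgeR 4.0.16 (R 4.3.3; quasi-likelihood, robust prior, filterByExpr with a minimum count of 10 and a minimum total of 15) in 1 model of the 3 groups. Log2 CPM used a prior count of 2. Associations with Fos added its log2 CPM as a term. Adjustment was by Benjamini-Hochberg. The comparison and association steps were tested on simulated data. Alternatives used DESeq2 1.42.0 and limma 3.58.1 on log2(FPKM + 0.1) and log2(FPKM + 1). The robust prior was set after a first fit without it, to match an earlier analysis of these data, and the first fit is kept as an alternative; leaving out 3 hearts together was also added after seeing the data. Members and lists were chosen with earlier results of these data known. Named genes are the members, up to 4 genes of lowest p a list, the 5 of lowest p in each direction with Fos, and the 10 most alike. Genes named after their values were seen are marked. Correlations used Python 3.11.15 and scipy 1.17.1.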

Additional observations from a re-analysis of the deposited data

Results flagged for a closer look

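In each group of 6 hearts, the distance of the highest or lowest CPM from its nearest neighbour was divided by the group's range and set against Dixon's critical value. Of 30 groups (10 genes by 3 vectors) 12 exceeded it, for 9 genes. The critical value is exceeded by chance in about 1 in 20 groups only where values are normally distributed. The CPM were used without logs and their distribution was not tested, so the rate for these groups is not known. Genes that vary together are not independent cases.

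PLCβ1a heart 7 was the isolated highest heart for 8 genes, with a ratio of 0.921 for Fos, 0.869 for Junb, 0.829 for Egr1, 0.750 for Nr4a1, 0.733 for Dusp1, 0.702 for Fosb, 0.645 for Ier2 and 0.638 for Fosl2. PLCβ1b heart 6 was isolated for Fos (0.632) and Atf3 (0.632), and PLCβ1b heart 16 for Egr1 (0.736). Blank heart 30 was the isolated lowest heart for Dusp1 (0.708). Jun had no isolated heart in any group.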

How the results depend on the processing

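Neither the scaling (RLE), the filter, mitochondrial genes, DESeq2, limma on FPKM nor any single heart gave a call of a member between groups. Fosb failed the filter when only a PLC group and blank hearts were fitted. The number of genes associated with Fos was 25. It was 15 at an FDR below 0.05, 47 with no group term, 88 with Junb in place of Fos, 8 by limma on log2(FPKM + 0.1) and 70 without PLCβ1a heart 7 and PLCβ1b hearts 6 and 16, and ranged from 15 to 56 with each heart left out. Of 9 members 6 were called, 3 by limma, 2 without the 3 hearts and 2 to 7 with each heart left out. The median r of 45 pairs, 0.75, was 0.58 without the 3 hearts and 0.66 to 0.78 with each heart left out.

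For Atf3, PLCβ1b minus PLCβ1a was 0.17 and became −0.045 by limma on log2(FPKM + 0.1), with or without the filter, and −0.00097 on log2(FPKM + 1). Over fits that each omit a heart, the difference ranged from −0.32 to 0.36 for Atf3, −0.57 to 0.46 for Fos, −0.76 to 0.17 for Fosb, −0.65 to 0.43 for Junb, −1.59 to 0.24 for Egr1, −0.56 to 0.0023 for Ier2, −0.31 to 0.26 for Nr4a1 and −0.14 to 0.11 for Dusp1. Jun in PLCβ1b against blank ranged from −0.021 to 0.16. The cause was not tested. No mouse number is shared between groups. No paired analysis was possible because the groups compared share fewer than 2 numbers. Of all genes, 12 (PLCβ1b) and 17 (PLCβ1a) were called against blank, 24 and 33 by DESeq2, 24 and 29 with no filter, 12 and 10 without the robust prior, 15 and 10 with only the groups compared, 7 and 4 at an FDR below 0.05, 5 and 5 by limma with the filter and 4 and 2 without. Leaving out a heart gave 2 (blank 34 or PLCβ1b 17), 4 (PLCβ1b 4) or 6 (PLCβ1b 6) in place of the 12 and 18 without blank 32 at the other end, and in place of the 17 it gave 3 (blank 34 or PLCβ1a 11), 7 (PLCβ1a 7), 8 (blank 32), 9 (PLCβ1a 14) or 10 (blank 36). Fosb, with as few as 3 counts in a heart, is limited by depth.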
